A study of Rattus norvegicus with 4 samples.

Results

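The genes described here are 9 components and regulators of the complement system, namely C1qa, C1qb, C1qc, C1s, C2, C3, Cfb, Serping1 and C5ar1. They were chosen by name, through array probes whose transcript accession maps to these rat genes. Earlier results of these data were known when the choice was made, so shares over all genes are set beside them as description only. All 9 were found, on 10 probes (C2 had a pair of them), among 22821 genes tested. Of these, 13940 had a gene symbol. The rest were counted under the sequence name of their probe, so a gene may count more than once in shares of all genes. RNA was taken from the spinal dorsal horn, where sensory fibres enter the cord, and hybridised to 4 Agilent 2-colour arrays. The rats were male, 6 weeks old and sampled on day 10. On 2 arrays the Cy5 channel is labelled as RNA of rats given oxaliplatin, a platinum chemotherapy drug with a painful neuropathy among its side effects. On the other 2 arrays it is labelled as RNA of vehicle-treated rats. The Cy3 channel is labelled as RNA of untreated rats on every array, and no array had its dyes swapped. How many rats stood behind each array, their strain, the dose and the vehicle are not given in the sources used here. Arrays of a group are called biological replicates, so the p-values measure the spread between arrays, and their small number limits the precision.

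Complement is a cascade of plasma and tissue proteins that tags cells and debris for removal. In the classical pathway C1q, built of A, B and C chains, recognises a target and activates the proteases C1r and C1s, which cleave C4 and C2 to form an enzyme that splits C3. Factor B, the product of Cfb, forms the corresponding enzyme of the alternative pathway, and C3 is the central protein on which both converge. Serping1 encodes C1 inhibitor, which inactivates C1r and C1s, and C5ar1 encodes the receptor of the inflammatory fragment C5a. In the central nervous system microglia are the main source of C1q, and complement takes part in the removal of synapses by microglia.

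Promoter sequences are shown for C1qa, C1qb and C3, the only 3 of the 9 genes matched in the RefSeq table of promoters (build GRCr8). These 3 genes also had the most alike Cy3 profiles of the 9 over the 4 arrays, which played no part in what could be shown. Each sequence runs 5′ to 3′ on the gene's strand, here the minus strand, from 250 bases before to 50 bases after the start of the transcript. The C1qa window is chr5:154419884-154420183, with a GC content of 54.7%. That of C1qb is chr5:154407778-154408077, with a GC content of 57.7%. That of C3 is chr9:2201290-2201589, with a GC content of 58.3%. Capitals mark matches, on either strand, to 5 motifs searched for.
C1qa: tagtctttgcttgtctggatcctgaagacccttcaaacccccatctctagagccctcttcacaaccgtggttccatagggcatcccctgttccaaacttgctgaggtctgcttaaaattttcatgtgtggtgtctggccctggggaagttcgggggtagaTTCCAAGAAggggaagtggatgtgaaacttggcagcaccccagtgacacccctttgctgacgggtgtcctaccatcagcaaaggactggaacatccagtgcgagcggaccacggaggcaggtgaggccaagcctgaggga
C1qb: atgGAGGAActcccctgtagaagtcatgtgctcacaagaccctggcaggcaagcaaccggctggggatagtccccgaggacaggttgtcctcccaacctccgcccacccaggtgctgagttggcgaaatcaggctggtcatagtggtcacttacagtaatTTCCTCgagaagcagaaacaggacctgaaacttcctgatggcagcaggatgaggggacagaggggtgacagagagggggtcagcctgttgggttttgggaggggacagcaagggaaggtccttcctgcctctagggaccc
C3: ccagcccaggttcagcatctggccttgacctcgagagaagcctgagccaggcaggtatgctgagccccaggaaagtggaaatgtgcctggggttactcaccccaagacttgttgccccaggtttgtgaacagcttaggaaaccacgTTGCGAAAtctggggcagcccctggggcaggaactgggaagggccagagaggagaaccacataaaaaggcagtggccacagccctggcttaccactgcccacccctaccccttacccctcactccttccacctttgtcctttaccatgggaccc
The C1qa window held 1 match to the STAT motif TTCNNNGAA, whose first base lay at position -90 from the start site. The C1qb window held 2 matches to the PU.1 motif GAGGAA, at -247 and, on the opposite strand, at -90. PU.1 is a transcription factor of myeloid cells. The C3 window held 1 match to the C/EBP motif TTGCNNAA, at -104. No window held the letters TATAAA or the NF-kB motif. Of 33469 rat promoters of this length, 27.6% held the PU.1 letters, 8.87% those of STAT, 10.6% those of C/EBP, 14.2% TATAAA and 4.18% the NF-kB motif. In the order of genes in GRCr8, C1qb, C1qc and C1qa follow each other directly. C2 and Cfb are also direct neighbours, as are C1s and C1r.

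Probes well above background made up 82.6% to 85.4% per array in Cy5 and 76.8% to 88.1% in Cy3. Oxaliplatin replicate 2 had a median Cy3 signal of 283.5, against 494 to 564 on the other arrays. Each group lay on a slide of its own, so slide and group cannot be told apart. The oxaliplatin arrays shared a scan, while vehicle replicates 1 and 2 had separate scans. Gaps between the vehicle arrays therefore cannot be told apart from a difference between scans. The label of the tissue was checked against marker genes, and forebrain and ganglion genes in the Cy5 channel went against it on all 4 arrays. Forebrain genes (5 of 6 listed were measured) had a median log2 Cy5/Cy3 ratio between 3.75 and 4.24 per array. Genes of Schwann cells and dorsal root ganglia (8 of 8 measured) had medians of 2.62 to 3.03. In both lists every measured gene had a ratio above 0 on every array. Hox genes of the spinal cord (5 of 11 measured) had medians of -1.22 to -0.81, with 4 of 5 below 0 on all arrays. The 5 oligodendrocyte genes were also below 0 on all arrays, with medians of -2.07 to -1.03. The 7 measured dorsal horn genes had medians of -0.22 to 0.15. Ratios do not show that cord RNA was absent from Cy5. On the normalised scale, the summed level of the dorsal horn genes was 73886 to 80182 in Cy5 and 57236 to 68574 in Cy3. That of the Hox genes was 33426 to 36413 in Cy5 and 51878 to 98735 in Cy3. Transcripts of forebrain and ganglia were thus higher in Cy5 than in Cy3 on every array, and their part in the values below was not tested. The extract protocol in the labels describes Cy3 labelling only, so which channel held the treated rats' RNA rests on the sample labels alone. Ratios are given as Cy5 over Cy3. If Cy3 held the treated rats' RNA instead, the printed values would stand, but their reading as treated over untreated RNA would turn. The Cy3 levels below would then be those of the oxaliplatin-treated or vehicle-treated rats. In tissue RNA, fewer cells of a type and less RNA per cell cannot be told apart.

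**Figure D1:**
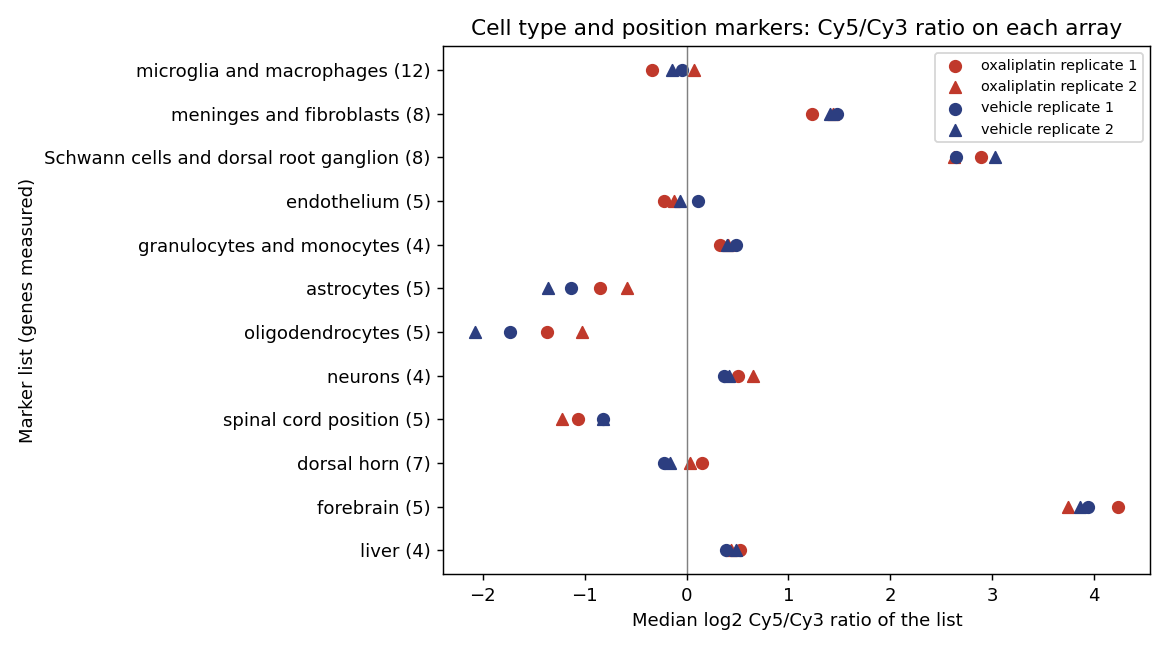
Log2 Cy5/Cy3 ratios of marker lists on each of the 4 arrays, as the median over the measured genes of each list. Forebrain and ganglion genes lie at 2.62 or higher on every array, while Hox and oligodendrocyte genes lie below 0.

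All 9 complement genes were well above background in both channels on all 4 arrays, so every value below is a measured one. None of their spots was saturated or marked as an outlier. Median spot signals spanned a wide range, over a local background of 52 to 80.5 in Cy5 and 35 to 50 in Cy3. For C1qb the Cy5 signals were 34290 to 41219 and the Cy3 signals 6668 to 21328. For C5ar1 they were 372 to 532.5 in Cy5 and 145 to 260.5 in Cy3. Signals of different probes also depend on the probe, so they give no order of the genes. Repeated spots of a probe differed by an SD of at most 0.124 in the log2 ratio.

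The first question is how the complement genes differed between the channels of an array. Serping1, the C1 inhibitor, was higher in Cy5 in both groups, while C1s, C2 and C3 were higher in Cy3 in both. In the vehicle group, the limma test of the ratio against 0 called 1 of the 9 genes higher in Cy5 (23.4% of all genes were) and 4 lower (22.1% of all genes). In the oxaliplatin group it called 1 higher (19.0% of all genes) and 4 lower (15.8% of all genes). A call is an adjusted p under 0.05, with Benjamini-Hochberg adjustment over all 22821 genes. Since no dyes were swapped, dye and RNA cannot be told apart in these ratios.

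**Figure D2:**
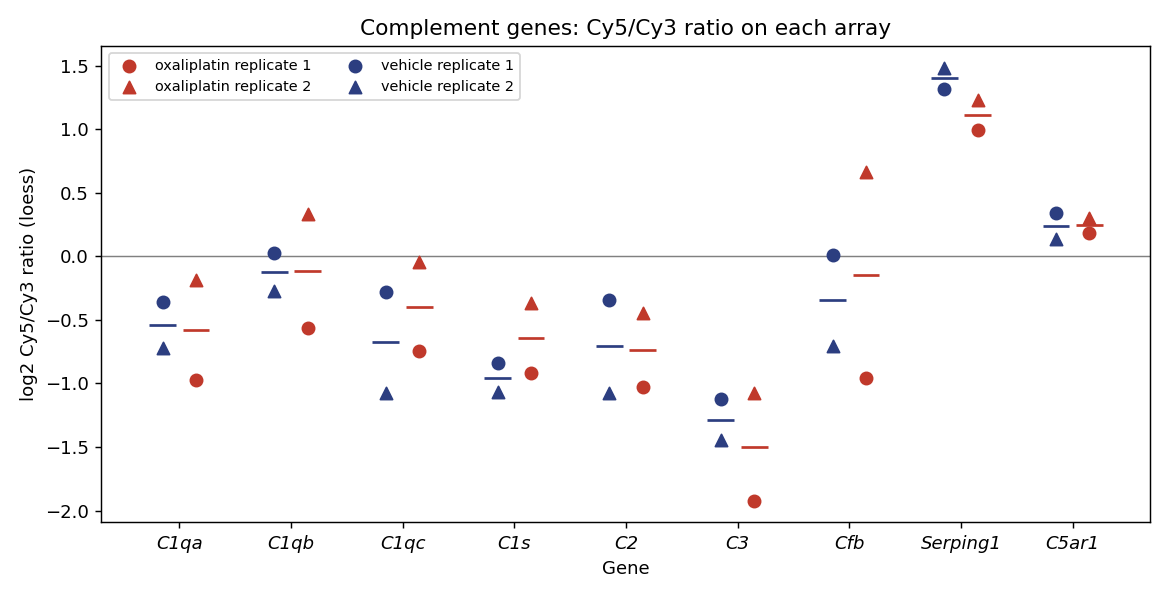
Log2 Cy5/Cy3 ratio of each of the 9 complement genes, with a point per array and a bar at each group's mean. Serping1 lies at 1.00 to 1.49 and C3 at -1.92 to -1.08, while C1qb and Cfb have values on both sides of 0.

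The chains of C1q, the recognition molecule, had ratios near or below 0. C1qa, the A chain, had log2 ratios of -0.97 and -0.19 on the oxaliplatin arrays (replicate 1 first), then -0.36 and -0.72 on the vehicle arrays. The 4 values of C1qa were all negative, but those of one group enclosed those of the other. Its mean was -0.58 in the oxaliplatin group (limma, adjusted p = 0.0496) and -0.54 in the vehicle group (adjusted p = 0.0509), on either side of the threshold. The oxaliplatin call of C1qa was lost under 5 alternatives, with median centring at -0.15 (limma, adjusted p = 0.491), and with adjusted p of 0.0502 to 0.0700 for the scanner log ratio, the value table, the mean over probes and no filter on dim probes. C1qb, the B chain, had ratios of -0.57, 0.33, 0.03 and -0.27 in the same order of arrays. With means of -0.12 in both groups it passed in neither (limma, adjusted p = 0.671 for oxaliplatin and 0.639 for vehicle). C1qc, the C chain, had ratios of -0.75, -0.046, -0.28 and -1.07. Its mean of -0.67 was called in the vehicle group (limma, adjusted p = 0.0423), and its mean of -0.40 in the oxaliplatin group was not (adjusted p = 0.201). The difference between these means is tested further on and was not called. The C1qc call in the vehicle group was lost without vehicle replicate 2 (-0.28, limma adjusted p = 0.410). It was also lost with the scanner log ratio (limma, adjusted p = 0.0832), the value table (0.0833) and scaling between arrays (0.0599). Without oxaliplatin replicate 1 the C1qa mean of the oxaliplatin group was -0.19 (limma, adjusted p = 0.388). Without oxaliplatin replicate 2, C1qb at -0.57 (limma, adjusted p = 0.0145) and C1qc at -0.75 (adjusted p = 0.0401) were called there. In the vehicle group C1qa was called when either oxaliplatin array was left out (limma, adjusted p = 0.00299). It was also called when vehicle replicate 1 was (-0.72, limma adjusted p = 0.0447).

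C1s, the protease that C1q activates, had ratios of -0.92, -0.36, -0.84 and -1.07, below 0 on every array. Its mean was -0.64 in the oxaliplatin group (limma, adjusted p = 0.0137) and -0.96 in the vehicle group (adjusted p = 0.00204). C2, which C1s cleaves, had ratios of -1.03, -0.45, -0.35 and -1.07. The means of C2 were -0.74 (limma, adjusted p = 0.0273) and -0.71 (adjusted p = 0.0240). Its other probe read -1.04, -0.026, -0.14 and -0.81, again lower on oxaliplatin replicate 1 and vehicle replicate 2 than on the others, and with the mean of both probes neither group passed (limma, adjusted p = 0.0635 for oxaliplatin and 0.0655 for vehicle). The calls in the oxaliplatin group were lost without its replicate 1, for C1s at -0.36 (limma, adjusted p = 0.0706) and for C2 at -0.45 (adjusted p = 0.173). Without vehicle replicate 2, C2 in the vehicle group was -0.35 (limma, adjusted p = 0.258).

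C3, the protein on which the pathways converge, had the lowest ratios of the 9 genes. They were -1.92 and -1.08 on the oxaliplatin arrays and -1.12 and -1.45 on the vehicle arrays. The mean of -1.50 ± 0.19 (limma SE, n = 2 arrays) in the oxaliplatin group means a Cy3 level 2.83-fold that of Cy5 (limma, adjusted p = 0.00168). In the vehicle group the mean was -1.29 ± 0.19 (limma SE, n = 2 arrays), a Cy3 level 2.44-fold that of Cy5 (limma, adjusted p = 0.00217). Both SE come from a spread that limma estimated over both groups together, so they do not show how far a group's own arrays lay apart. Cfb, factor B of the alternative pathway, had ratios of -0.95, 0.66, 0.013 and -0.70, so each group held values on both sides of 0. Neither group mean of Cfb passed, at -0.15 for oxaliplatin (limma, adjusted p = 0.769) and -0.34 for vehicle (adjusted p = 0.450). Without oxaliplatin replicate 2, Cfb was -0.95 there (limma, adjusted p = 0.0119).

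Serping1, the inhibitor of C1r and C1s, was the one gene of the 9 called higher in Cy5. Its ratios were 1.00 and 1.23 on the oxaliplatin arrays and 1.32 and 1.49 on the vehicle arrays. The mean of 1.40 ± 0.096 (limma SE, n = 2 arrays) in the vehicle group is a Cy5 level 2.64-fold that of Cy3 (limma, adjusted p = 0.000120). In the oxaliplatin group it was 1.12 ± 0.096 (limma SE, n = 2 arrays), or 2.17-fold (limma, adjusted p = 0.000354). The SE of Serping1, too, rest on the spread over both groups together. C5ar1, the C5a receptor, had ratios of 0.19, 0.31, 0.34 and 0.14, all above 0. The means of C5ar1 did not pass, at 0.25 for oxaliplatin (limma, adjusted p = 0.0763) and 0.24 for vehicle (adjusted p = 0.0691). Without either oxaliplatin array the vehicle mean of 0.24 passed (limma, adjusted p = 0.0469). Markers of meninges and fibroblasts, cells that also make C1 inhibitor, were higher in Cy5 as well, with 7 of 8 above 0 on all arrays and medians of 1.23 to 1.48. Their summed Cy5 level was 50077 to 52593 on the normalised scale, and their summed Cy3 level 12246 to 15829. The trait is not particular to that list. Above 0 on all arrays were also 8 of 8 Schwann cell and ganglion genes and 5 of 5 forebrain genes. So were 3 of 4 granulocyte and monocyte genes and 3 of 4 liver genes. Below 0 on all arrays were 5 of 5 oligodendrocyte, 4 of 5 astrocyte and 4 of 5 Hox genes. The part of any of these cells or tissues in the Serping1 ratio was not tested.

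The main comparison asks whether complement transcripts differed between oxaliplatin and vehicle. None of the 9 genes passed in the ratio, in Cy5 or in Cy3 (limma, adjusted p under 0.05), and 0% of all 22821 genes did. At an unadjusted p under 0.05, the ratio gave 0 of the 9 genes against 14.6% of all genes, Cy5 gave 1 (C5ar1) against 20.5%, and Cy3 gave 0 against 20.9%. The median difference of the 9 genes in the log2 ratio, oxaliplatin minus vehicle, was 0.0044, beside 0.0055 over all genes. Of the 9 estimates, 5 were above 0 and 4 below. The groups did not overlap in the ratio for 1 gene (49.2% of all genes), Serping1, which was lower on both oxaliplatin arrays, as were 22.2% of all genes. No gene of the 9 was higher on both, where 27.0% of all genes were. Without 1 array the number of genes called over the whole table ranged from 2 (without vehicle replicate 2), through 15 (oxaliplatin replicate 2) and 33 (vehicle replicate 1), to 937 (oxaliplatin replicate 1), and no complement gene of the 9 was among them.

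**Figure D3:**
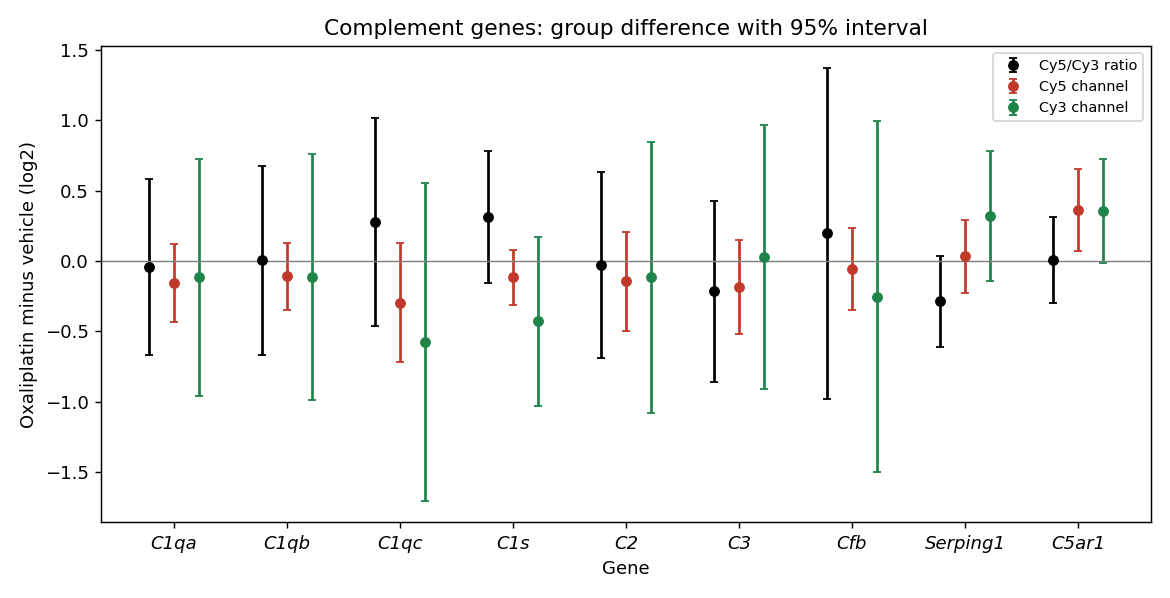
Oxaliplatin minus vehicle difference of each complement gene in the log2 Cy5/Cy3 ratio, in Cy5 and in Cy3, with 95% confidence intervals from limma (n = 2 arrays per group). All 9 intervals of the ratio include 0, and in Cy5 that of C5ar1 (0.075 to 0.65) does not.

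Among the recognition and initiation genes, the ratio of C1qa differed by -0.041 ± 0.26 (SE, n = 2 arrays per group; limma, adjusted p = 0.961), with a 95% interval of -0.66 to 0.58. That of C1qb differed by 0.0044 ± 0.28, with an interval of -0.66 to 0.67. Both intervals reach 0.58 or further on either side of 0, so differences of that size in either direction remain possible for these chains. C1qc differed by 0.28 ± 0.31, with an interval of -0.46 to 1.02. C1s differed by 0.31 ± 0.20, with an interval of -0.16 to 0.78 (limma, adjusted p = 0.488). For C2 the difference was -0.029 ± 0.28, and its other probe gave -0.057. C3 differed by -0.21 ± 0.27, with an interval of -0.86 to 0.43. For Cfb the difference of 0.20 ± 0.49 had the widest interval of the 9, from -0.98 to 1.37. Among the regulator and the receptor, Serping1 differed by -0.29 ± 0.14, with an interval of -0.61 to 0.039 (limma, unadjusted p = 0.0755, adjusted p = 0.385). C5ar1 differed by 0.0061 ± 0.13, with an interval of -0.30 to 0.31.

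The single channels show where the values of the arrays lie. In Cy5 the groups did not overlap for 4 of the 9 genes (59.8% of all genes), of which 1 was higher on both oxaliplatin arrays (29.6% of all genes were) and 3 lower on both (30.2% of all genes). The higher gene was C5ar1, with log2 Cy5 levels of 8.62 and 8.61 on the oxaliplatin arrays against 8.37 and 8.13 on the vehicle arrays. Its difference was 0.36 ± 0.11 (SE, n = 2 arrays per group), which did not pass (limma, unadjusted p = 0.0244, adjusted p = 0.209). The 3 lower genes were C1qa, C1qc and C1s, by 0.11 to 0.30 in size. C1qc, for example, had Cy5 levels of 9.33 and 9.18 against 9.36 and 9.74, a gap between the groups smaller than the gap inside the vehicle group. With each array left out in turn, the Cy5 difference ranged from 0.25 to 0.48 for C5ar1 and from -0.48 to -0.11 for C1qc. A fit with 1 vehicle array left takes each gene's spread from the oxaliplatin arrays, which shared a slide and a scan. It holds no measure of the spread between vehicle arrays, so no p-value is given for these Cy5 differences.

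In Cy3, labelled as untreated rats throughout, the groups did not overlap for 2 of the 9 genes (58.1% of all genes). Both were higher on both oxaliplatin arrays (26.9% of all genes were), and none of the 9 was lower on both (31.3% of all genes). C5ar1 had log2 Cy3 levels of 8.43 and 8.30 against 8.03 and 7.99, a difference of 0.36 ± 0.15 (SE, n = 2 arrays per group; limma, adjusted p = 0.248). The Cy5 and Cy3 levels of C5ar1 thus differed between the groups by the same 0.36, and its ratio by 0.0061. Serping1 had Cy3 levels of 11.89 and 11.70 against 11.65 and 11.30, a difference of 0.32 ± 0.19 (limma, adjusted p = 0.360). Its Cy5 levels of 12.89, 12.93, 12.97 and 12.78 overlapped between the groups, so its lower ratio on the oxaliplatin arrays went with a higher Cy3 level. With an array left out, no complement gene of the 9 was called in Cy3, though 2311 genes were without vehicle replicate 1 and 166 without vehicle replicate 2.

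**Figure D4:**
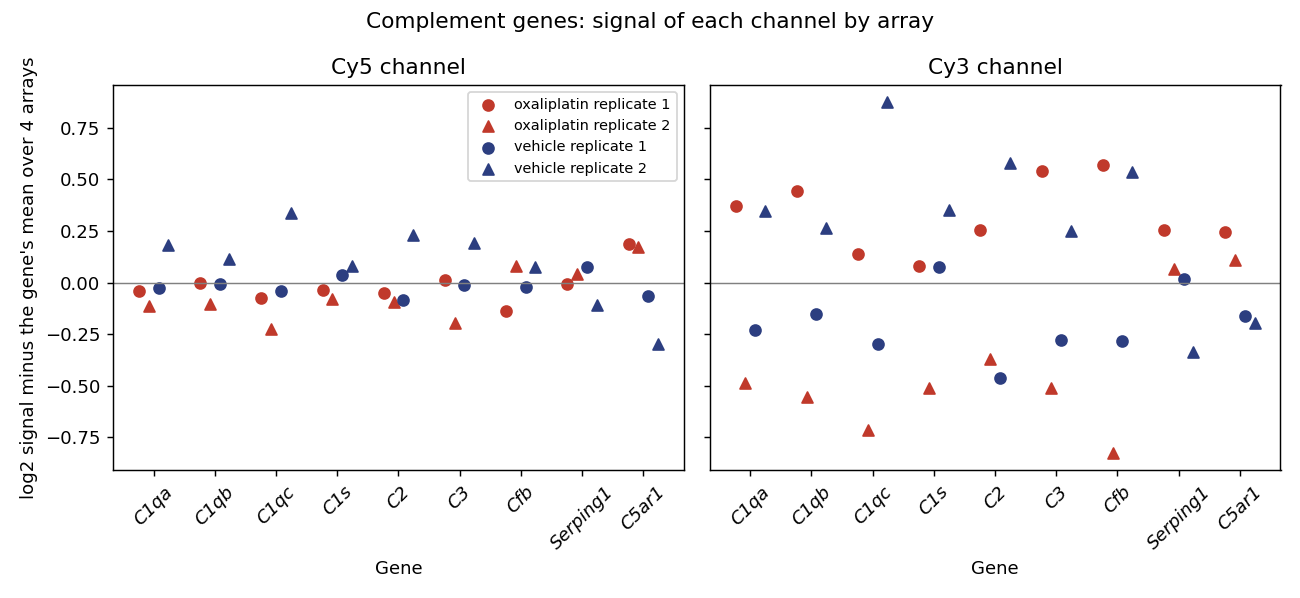
Normalised log2 Cy5 (left) and Cy3 (right) levels of the 9 complement genes on each array, each minus the gene's mean over the 4 arrays. The Cy5 points of a gene lie close together, with gaps inside a group of at most 0.38, while the Cy3 gap between the oxaliplatin arrays reaches 1.39 for Cfb.

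In Cy3 the arrays of a group differed from each other in an order that most of the 9 genes shared, a pattern noticed after the values were seen. For 7 of the 9 genes, all but Serping1 and C5ar1, Cy3 was higher on oxaliplatin replicate 1 than 2 and also higher on vehicle replicate 2 than 1, which held for 29.4% of all genes. The opposite held for 0 of the 9 and for 28.4% of all genes. Cfb moved most, with log2 Cy3 levels of 12.98 and 11.58 on the oxaliplatin arrays and 12.13 and 12.94 on the vehicle arrays. Its Cy3 level was thus 2.63-fold higher on oxaliplatin replicate 1 than 2, and 1.76-fold higher on vehicle replicate 2 than 1. Its Cy5 levels over the same arrays were 12.02, 12.24, 12.14 and 12.24, a range far smaller than that in Cy3.

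C3 had Cy3 levels of 13.37, 12.32, 12.55 and 13.08, again high on oxaliplatin replicate 1 and vehicle replicate 2. The gaps inside the groups were 2.08-fold and 1.44-fold. Its Cy5 levels were 11.45, 11.24, 11.42 and 11.63. The C1q chains had the same order of arrays inside each group. C1qa had Cy3 levels of 14.01, 13.15, 13.41 and 13.98, and C1qb of 15.03, 14.03, 14.44 and 14.85. For C1qc they were 10.08, 9.23, 9.64 and 10.81, with its larger gap, 2.25-fold, inside the vehicle group. The Cy5 levels of C1qa were 13.04, 12.96, 13.05 and 13.26, and those of C1qb 14.47, 14.36, 14.46 and 14.58, with gaps inside a group of at most 0.21 in Cy5. C2 had Cy3 gaps of 1.54-fold and 2.06-fold, and C1s the smallest of the 7, 1.51-fold and 1.21-fold. Their Cy3 levels were 10.24, 9.61, 9.52 and 10.56 for C2, and 10.19, 9.60, 10.19 and 10.46 for C1s.

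Over the 9 genes the median SD between arrays of a group was 0.54 in Cy3, 0.12 in Cy5 and 0.45 in the ratio (log2). Over all genes it was 0.16, 0.093 and 0.12. The Cy3 SD of 6 of the genes, those other than C1s, Serping1 and C5ar1, exceeded that of 95.1% to 98.3% of all genes. For C1s that share was 86.4%, for Serping1 63.4% and for C5ar1 13.1%. Serping1 moved the other way on the vehicle arrays, with Cy3 gaps of 0.19 inside the oxaliplatin and -0.35 inside the vehicle group. In the centred Cy3 profile over the 4 arrays, C1qa and C1qb were the closest pair, at a Euclidean distance of 0.149. C1qb and C3 followed at 0.166, and C1qa and C3 at 0.202. The same 7 genes had the pattern when Cy3 was quantile normalised (29.3% of all genes) and in the scanner software's processed Cy3 signal (25.6% of all genes), both chosen after seeing the data.

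**Figure D5:**
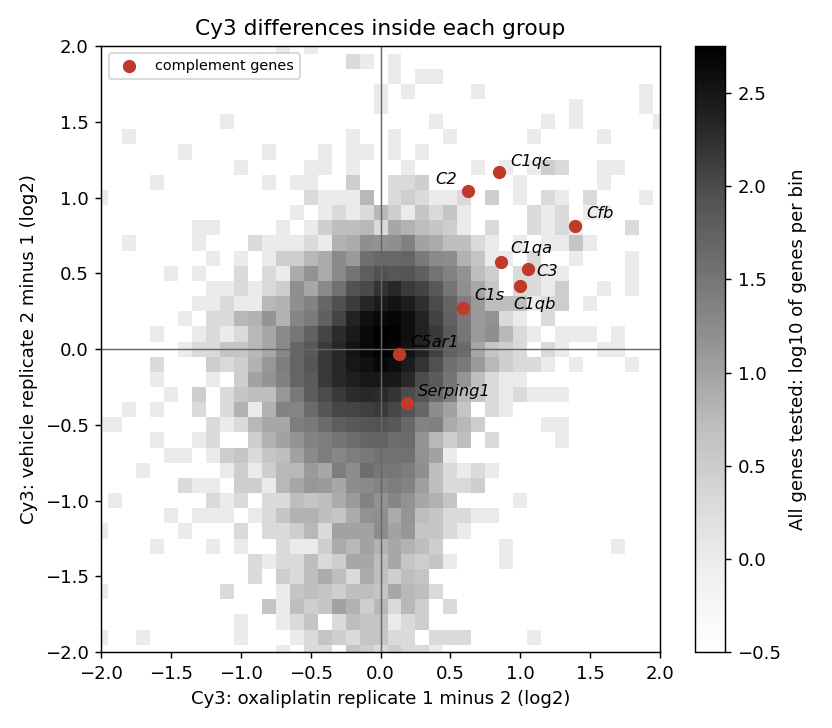
Cy3 level on oxaliplatin replicate 1 minus 2 against that on vehicle replicate 2 minus 1 (log2), with the 9 complement genes over the density of all genes. A cluster of 7 of the 9 genes lies in the upper right. The axes end at 2 in either direction, beyond which 145 genes lie.

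Microglia and macrophage markers were set beside this pattern, since these cells make C1q. All 12 were measured and were above background in Cy5 on all arrays, 11 of them also in Cy3. Of these, 7 had the same order of arrays in Cy3 and 1 the opposite order, with median gaps of 0.30 inside the oxaliplatin and 0.072 inside the vehicle group. The corresponding medians of the 9 complement genes were 0.85 and 0.53. Aif1, a calcium-binding protein of microglia, had gaps of 0.87 and 0.11, and Trem2, a lipid receptor, 0.87 and 0.065. Tmem119, a microglial membrane protein, had 0.43 and 0.87. P2ry12, the microglial ADP receptor, had 0.13 and -0.34, and the lysosomal protein Cd68 had 0.65 and -0.52. The summed Cy3 level of the list was 83960 on the first and 57981 on the other oxaliplatin array, against 75511 and 76222 on the vehicle arrays. Its summed Cy5 level was 62956 to 66929. The markers thus moved with the complement genes on the oxaliplatin arrays, and their summed level hardly differed between the vehicle arrays, where C1qc and C2 had their larger gaps. Their part in the pattern was not tested. Over all genes, too, arrays of a group differed more in Cy3 than in Cy5, with an SD of the difference of 0.32 against 0.16 for the oxaliplatin and 0.42 against 0.37 for the vehicle arrays.

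The rest of the pathway was followed in a list of 46 other complement genes. Of these, 33 were measured, and 5 (C8a, Mbl2, Colec10, Cr2 and Vsig4) had probes that did not pass the filter on background. The other 8 (C4b, C5, C7, C8g, Colec11, Itgax, Csmd2 and Csmd3) had no probe named here. In the ratio, 0 of 33 were called between the groups in limma and 4 had an unadjusted p under 0.05, a share no larger than the 14.6% of all genes that did. The median difference was -0.0018, with 15 estimates above 0 and 18 below. Both oxaliplatin arrays were higher for 9 genes and lower for 5, against the shares of 27.0% and 22.2% over all genes given above. The smallest p belonged to Masp1, a protease of the lectin pathway. Its ratios were 0.16 and 0.52 on the oxaliplatin arrays and -0.39 and -0.52 on the vehicle arrays, a difference of 0.80 ± 0.15 (SE, n = 2 arrays per group; limma, adjusted p = 0.294). The Cy5 levels of Masp1 overlapped between the groups, and its Cy3 level differed by -0.77. Clu, clusterin, an inhibitor of the terminal complex, differed by 0.68 ± 0.16 in the ratio (limma, adjusted p = 0.294) and by -0.80 in Cy3. C1ql1, a C1q-like protein of synapses, differed by 0.67 ± 0.18 (limma, adjusted p = 0.294) and by -0.86 in Cy3. Markers of glia were set beside these values. None was called in the ratio in limma, and 3 of 5 oligodendrocyte and 2 of 5 astrocyte genes had an unadjusted p under 0.05. The 5 oligodendrocyte genes had a median difference of 0.72 in the ratio and -0.72 in Cy3, and 4 of them were higher in the ratio on both oxaliplatin arrays. The 5 astrocyte genes had median differences of 0.42 and -0.082, and 3 were higher in the ratio on both. Their part in the values of Masp1, Clu and C1ql1 was not tested. C6, a part of the membrane attack complex, was the fourth at -0.41 ± 0.13 (limma, adjusted p = 0.301). The next were Vtn (vitronectin, an inhibitor of the terminal complex) at 0.28, Colec12 (a scavenger receptor) at 0.29, Csmd1 (a membrane-bound inhibitor) at 0.27 and C4bpb (a chain of the C4b-binding protein) at -0.30. Against 0, 8 of the 33 were called higher in Cy5 (23.4% of all genes were) and 7 lower (22.1%) in the vehicle group. In the oxaliplatin group 9 were higher (19.0% of all genes) and 4 lower (15.8%).

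Of the components of the cascade chosen whatever their values, C4a, the C4 protein that C1s cleaves, differed by -0.019 ± 0.50 in the ratio (SE, n = 2 arrays per group; limma, adjusted p = 0.991). It had the same Cy3 order of arrays as the 7 genes, with a gap of 3.03-fold inside the oxaliplatin and 2.10-fold inside the vehicle group. The near-identical copy C4b may share the C4a probe and had no probe named here, so the C4a values are uncertain. The C3a receptor C3ar1 differed by -0.055. Cd59b, an inhibitor of the membrane attack complex, was matched to the listed Cd59 through its synonyms and differed by 0.20. Cd55, which speeds the decay of the C3-cleaving enzymes, differed by -0.0029 and had a ratio of 3.24 in both groups (limma against 0, adjusted p = 4.26e-06 for oxaliplatin and 3.93e-06 for vehicle). C1r, the partner of C1s, and Itgam, a chain of a C3 fragment receptor on microglia, were picked out after their values were seen. Their Cy3 gaps were 1.07 and 1.23 for C1r, and 1.18 and 0.52 for Itgam, inside the oxaliplatin and the vehicle group. Other receptor genes of the list lacked this order, with gaps of 0.86 and -0.059 for Itgb2, and 0.035 and -0.090 for C3ar1. In all, 15 of the 33 genes had the Cy3 order of the 7 and 6 had the opposite order, beside 29.4% and 28.4% of all genes.

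The genes whose ratios lay nearest to the mean profile of the 3 C1q chains (-0.76, 0.033, -0.20 and -0.69) were Ly86, Grn, Arpc1b, Psme1 and Abcg3l4. Their Euclidean distances over the 4 arrays were 0.182, 0.191, 0.246, 0.254 and 0.264. No such close neighbour was found for C3, whose nearest genes were Ankrd34b at 0.525, Il18 at 0.528, Ngb at 0.569, Myrf at 0.591 and Slc5a11 at 0.634. The ratios were not centred for these distances, so the level of a gene counts as well as its order of arrays. They describe 4 arrays and carry no test.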

How the data were processed

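Total RNA was measured on 4 two-colour arrays, 2 per group, grouped by sample title. The scanner files hold, per the file headers, each spot's intensity and local background as median pixel signals, and the log10 ratio of Cy5 over Cy3. The authors' deposited value table holds the same log10 ratio, with medians of -0.00277, 0, -0.00492 and -0.00316, and differed from the scanner values by at most 0.0050. The submitters' processing notes give version 8.5.1.1 of Agilent Feature Extraction, and the headers 10.7.1.1. Deposited flags mark spots above background, saturated or outlying.

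Signals were background-corrected by normexp (offset 50) and normalised by loess within arrays in limma 3.58.1 under R 4.3.3. Control spots (4259 of 62976) had weight 0 in loess and were then left out, as were outlier spots. Repeated spots were averaged. Of 30367 probes, 30358 were complete and 26002 had Cy5 well above background on at least 2 arrays. Of these, 18758 had a symbol, matched by accession to RefSeq. The probe with the highest mean signal represented a gene. Single-channel log2 levels came from Aquantile. Groups were compared by lmFit and eBayes with 2 residual degrees of freedom and prior ones of 4.74 (ratio), 2.25 (Cy5) and 3.65 (Cy3), two-sided, at an adjusted p of 0.05 (Benjamini-Hochberg, 22821 genes). The scripts were tested on simulated data.

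The 9 genes, the wider list and the marker lists were chosen with earlier results of these data known. Named genes were all 9, the 8 of the wider list with the smallest p in the ratio comparison, C4a, C4b, C3ar1, Cd55, Cd59 and Clu, up to 5 markers a list, and the 5 genes nearest to the C1q mean and to C3. Some genes that this rule picks are not reported here. Alternatives were the scanner log ratio, median centring, no background correction, scaling between arrays, other probe filters, the mean over probes, the value table, quantile normalisation of a channel, the replicate number as a block and each array left out.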

Additional observations from a re-analysis of the deposited data

Results flagged for a closer look

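Masp1, a protease of the lectin pathway, had ratios above 0 on both oxaliplatin arrays and below 0 on both vehicle arrays, a difference of 0.80 in the log2 Cy5/Cy3 ratio. The difference itself did not pass (limma, adjusted p = 0.294).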

How the results depend on the processing

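The Serping1 and C3 calls of the ratio against 0 held in both groups under every alternative that was run. Between the groups, the ratio called 0 genes and 3 with the replicate number as a block. Same-numbered arrays deviated with r = -0.22 in the ratio, -0.00040 in Cy5 and -0.21 in Cy3, so their deviations were not alike. With 2 arrays per group, these values cannot show whether the arrays were processed as pairs. With crossed numbers, added after seeing the data, 537 genes were called. In Cy5 and Cy3 either block called 0 genes. With an array left out, the ratio called 2 to 937 genes, Cy5 0 to 5576 and Cy3 0 to 2311. Against 0, the vehicle group gave 4975 to 12114 genes with an array left out (10383 with all; 6473 without vehicle replicate 1 and 4975 without replicate 2), and the oxaliplatin group 5544 to 7904 (7940 with all). Median centring gave 12199 genes in the oxaliplatin group. It also turned the sign of the group difference for C1qa (0.045), C2 (0.049) and C5ar1 (-0.041), of C1qb against 0 (0.42 in the vehicle and 0.50 in the oxaliplatin group, limma adjusted p = 0.0491 in the latter) and of Cfb in the oxaliplatin group (0.17). Without background correction C5ar1 differed by -0.0030. The cause was not tested.

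With each array left out in turn, the differences in the ratio ranged from -0.43 to 0.35 for C1qa, -0.44 to 0.45 for C1qb, -0.12 to 0.68 for C1qc, -0.39 to 0.33 for C2, -0.64 to 0.21 for C3, -0.61 to 1.01 for Cfb and -0.095 to 0.11 for C5ar1. Those of Serping1 (-0.40 to -0.17) and C1s (0.038 to 0.59) kept their sign. In Cy5 they ranged from -0.30 to 0.013 for C2, -0.16 to 0.055 for Cfb and -0.060 to 0.13 for Serping1. In Cy3 they ranged from -0.55 to 0.32 for C1qa, -0.61 to 0.39 for C1qb, -1.16 to 0.011 for C1qc, -0.64 to 0.40 for C2, -0.50 to 0.56 for C3 and -0.95 to 0.44 for Cfb. Against 0, C1qb ranged from -0.27 to 0.026 in the vehicle and -0.57 to 0.33 in the oxaliplatin group, and Cfb from -0.70 to 0.013 and -0.95 to 0.66. A group reduced to 1 array borrows the spread of the other group.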
